A study of Homo sapiens with 12 samples.

Results

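Olfactory receptor genes of families 1, 2, 4 and 5 were examined as genes expected to be silent in medulloblastoma (MB) cells, in order to measure how far such a set rises in ACM conditioned cells. The members were all genes with a symbol of the form OR1, OR2, OR4 or OR5, letters and a number, with no name ending in P, as given by the RefSeq accession of each array probe. They were 171 of the 27708 genes on the array, with 25 genes of family 1, 56 of family 2, 44 of family 4 and 46 of family 5. The rule used no measured value, although it was set with earlier results of these data known. RefSeq lists 170 of them as protein coding and OR4C45 as a transcribed pseudogene. All samples were Daoy cells, an established line of human MB, so that the results describe a single line. Cells were grown in medium collected from cultured rat astrocytes (astrocyte conditioned medium, ACM) or in control DMEM, both with serum, and were kept there over 1 passage (P1) or over 3 (P3), each lasting 48 h. The 4 groups, P1 ACM, P1 DMEM, P3 ACM and P3 DMEM, had 3 samples each, measured on 12 single-colour Agilent arrays. The astrocytes themselves were not on the arrays.

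Olfactory receptors are G protein-coupled receptors with which sensory neurons of the nose bind odorants. A mature olfactory neuron uses a single receptor gene out of this very large family, and the receptor signals through the G protein GNAL, the adenylyl cyclase ADCY3 and a cyclic nucleotide-gated channel made of CNGA2, CNGA4 and CNGB1. The genes lie in clusters that arose by duplication, most have a coding region without introns, and outside the nose most are silent, which is why they can serve as a reference for signal that is not expected.

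Of the 171 members, 135 had an entry in the RefSeq table of promoter windows (GRCh38.p14), each of 250 bases before and 50 bases after the annotated gene start. In 61 of these 135 windows (45.2%) the annotated start was itself the letters ATG, against 2.56% of all 27305 windows, so for those genes the annotation begins at the start codon. The windows were rich in A and T, with a median GC content of 36.7%, against 58.3% over all windows. The letters TATAAA, searched on both strands, occurred in 43 of the 135 member windows (31.9%) and in 11.95% of all windows. TAATTA, a core that homeodomain proteins such as LHX2 can bind, occurred in 32 (23.7%) and in 4.98% of all windows. CCCNNGGG, the core of the site of the EBF factors of olfactory neurons, occurred in 10 (7.41%) and in 18.6% of all windows. Such matches describe the letters and not bound sites. Windows of 3 members to which the results return are shown 5′ to 3′, with any of these letters in capitals: OR5L2, the brightest member, OR5H15, the largest rise at P1, and OR5P2, whose signal separated the 3 slides.
OR5L2 (chr11:55826969-55827268, plus strand): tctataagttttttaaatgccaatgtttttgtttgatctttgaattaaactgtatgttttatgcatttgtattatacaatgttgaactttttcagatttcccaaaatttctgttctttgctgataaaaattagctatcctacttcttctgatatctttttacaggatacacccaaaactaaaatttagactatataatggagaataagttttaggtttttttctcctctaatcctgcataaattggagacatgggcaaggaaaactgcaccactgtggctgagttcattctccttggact
OR5H15 (chr3:98166446-98166745, plus strand): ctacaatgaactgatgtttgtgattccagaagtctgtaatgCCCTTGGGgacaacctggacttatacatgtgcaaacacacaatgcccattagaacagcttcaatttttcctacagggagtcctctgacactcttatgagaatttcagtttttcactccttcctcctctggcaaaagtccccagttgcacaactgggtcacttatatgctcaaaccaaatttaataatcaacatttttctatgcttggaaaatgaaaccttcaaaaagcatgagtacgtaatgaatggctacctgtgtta
OR5P2 (chr11:7796893-7797192, minus strand): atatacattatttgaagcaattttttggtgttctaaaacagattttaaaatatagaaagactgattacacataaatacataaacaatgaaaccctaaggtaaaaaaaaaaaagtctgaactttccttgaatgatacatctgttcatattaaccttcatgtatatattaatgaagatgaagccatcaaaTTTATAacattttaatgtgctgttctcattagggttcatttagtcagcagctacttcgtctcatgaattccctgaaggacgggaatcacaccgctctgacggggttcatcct
The OR5L2 window held none of these letters, OR5H15 held 1 CCCNNGGG and OR5P2 held 1 TATAAA, read on the opposite strand. OR5L2 and OR5P2 are among the genes whose annotation begins at the start codon.

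The arrays lay on 3 slides of 4 arrays each, a slide being the arrays that share a scan identifier in the file headers. On slide 1 were all P1 ACM arrays together with P3 ACM 1. Slide 2 held P3 ACM 2 and 3 with P1 DMEM 1 and 2, and slide 3 held P1 DMEM 3 with the 3 P3 DMEM arrays. At P1 the medium and the slide therefore cannot be told apart, since ACM lay only on slide 1 and DMEM only on slides 2 and 3. At P3, ACM was on slides 1 and 2 and DMEM on slide 3. The labels of the scanner output, used here, conflict with those of the authors' table of log2 values, whose columns each rank like the array of another sample. The files do not settle which labels hold. Under the labels of that table, which lists 107 of the members, the median difference of the members was −0.21 at P1 and −0.42 at P3, in the opposite direction to the values from the scanner output. Of 8 markers of Daoy and of the SHH group of MB, SFRP1, NES, GLI1, VIM, HHIP and GLI2 were well above background on all 12 arrays, PTCH1 on the 11 where it had a value and ATOH1, a factor of granule neuron precursors, on 2.

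The signal of the members was not uniformly at background on these arrays. Whether it came from transcripts of the receptors themselves was not tested. Agilent marks a spot as well above background when its signal exceeds the noise of that array. Of the 171 members, 53 carried this mark on all 12 arrays, beside 20096 of all 27708 genes, while 25 members carried it on 0 arrays. The other 93 were marked on 1 to 11 arrays. Processed intensity, the signal after background correction by the scanner software and before any scaling between arrays, had a median over the members of 82.5, 67.8 and 67.9 in the P1 ACM samples. In the P1 DMEM samples it was 19.9, 29.6 and 25.1, and in the P3 DMEM samples 28.8, 25.9 and 25. In the P3 ACM samples it was 84.1 for replicate 1, and 18.8 and 16.5 for replicates 2 and 3. All 4 arrays of slide 1 were thus above all 8 arrays of the other slides, whereas P3 ACM 2 and 3 had the lowest medians of all 12 arrays. In such bulk RNA, fewer cells with a transcript and less of it per cell cannot be told apart.

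**Figure D1:**
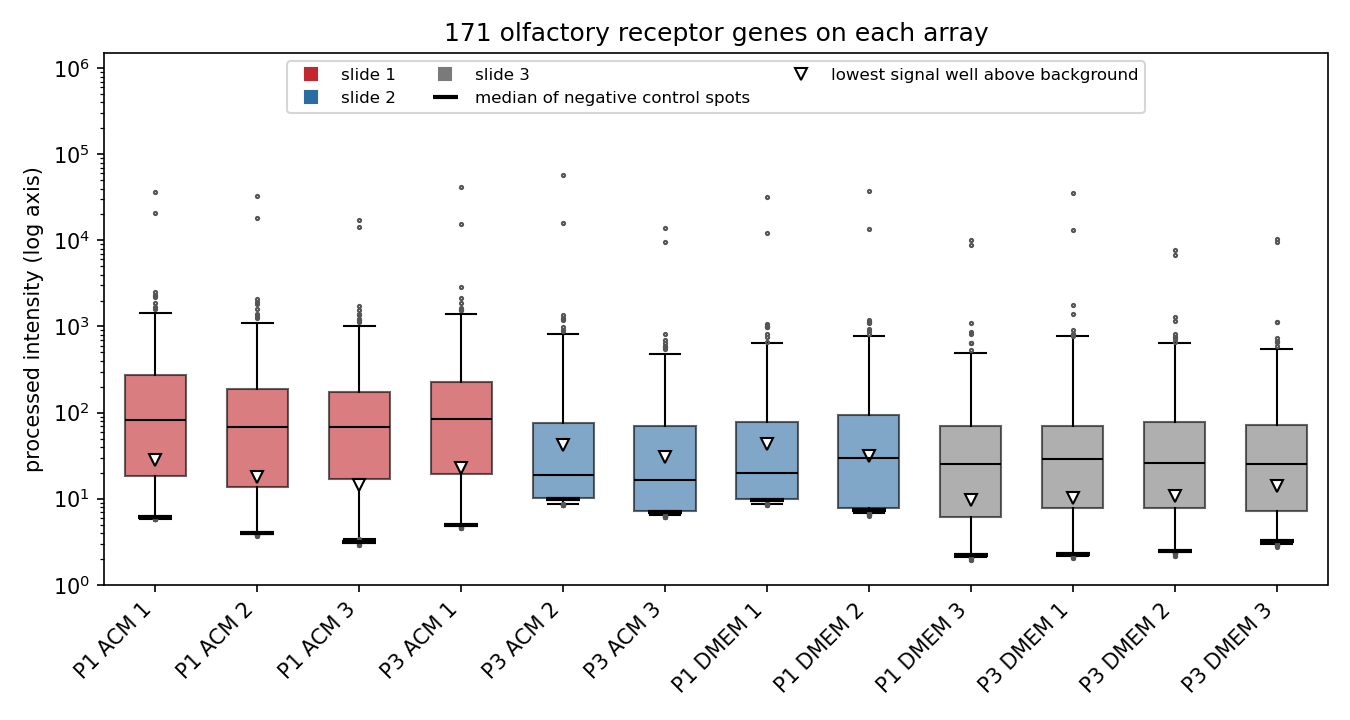
Processed intensity (log axis) of the 171 olfactory receptor genes on each of the 12 arrays, coloured by slide. Boxes span the lower to the upper quartile with the median as a line, whiskers reach the 5th and 95th percentile, points are genes beyond them, dashes are the median of the negative control spots and triangles the lowest signal marked well above background. The medians of slide 1, P3 ACM 1 among them, lie between 67.8 and 84.1, and those of the other 8 arrays between 16.5 and 29.6.

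Slide 1 was also highest in the signal before background subtraction, while slides 2 and 3 overlapped there. The members' median was 118 to 143 on slide 1, 69.0 to 83.0 on slide 2 and 70.0 to 74.0 on slide 3. The negative control spots, which match no transcript, did not show this separation of slide 1. Their median signal before subtraction was 41.0 to 45 on slide 1, 38.0 to 41.0 on slide 2 and 41.0 to 42.2 on slide 3. The members' median was therefore 2.77 to 3.22 times that of the negative controls on slide 1, 1.72 to 2.18 times on slide 2 and 1.67 to 1.75 times on slide 3.

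The share of members well above background followed a different order from their intensity. It was 66.7%, 69.6% and 76.6% in P1 ACM and 35.1%, 46.8% and 65.5% in P1 DMEM (mean 71.0% ± 5.11 against 49.1% ± 15.3, SD, n = 3 each), a difference of 21.8 percentage points. In P3 ACM it was 70.2%, 35.1% and 39.8%, and in P3 DMEM 66.1%, 67.3% and 60.8% (48.3% ± 19.1 against 64.7% ± 3.43, SD, n = 3 each), a difference of −16.4 points. The share was thus higher in ACM at P1 and lower in ACM at P3, and in both cases the low values were the 4 arrays of slide 2.

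Slide 3 reached 60.8% to 67.3% at a median intensity of 25 to 28.8, while slide 1 reached 66.7% to 76.6% at 67.8 to 84.1. The lowest signal that the software marked as well above background was 9.77 to 14.0 on slide 3, 14.3 to 28.4 on slide 1 and 30.8 to 42.7 on slide 2. A share therefore compares arrays with different limits. Over all 27708 genes the share was 91.1% to 94.7% on slide 1, 74.4% to 80.3% on slide 2 and 88.1% to 91.1% on slide 3. Of the members, 111 were marked on all 4 arrays of slide 1, 53 on all 4 of slide 2 and 95 on all 4 of slide 3. There were 30 members marked on all arrays of slide 1 and on none of slide 2, and 0 with the opposite pattern. These counts by slide are not given for all genes, and the limit was higher on slide 2, so they are not shown to be particular to the members.

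**Figure D2:**
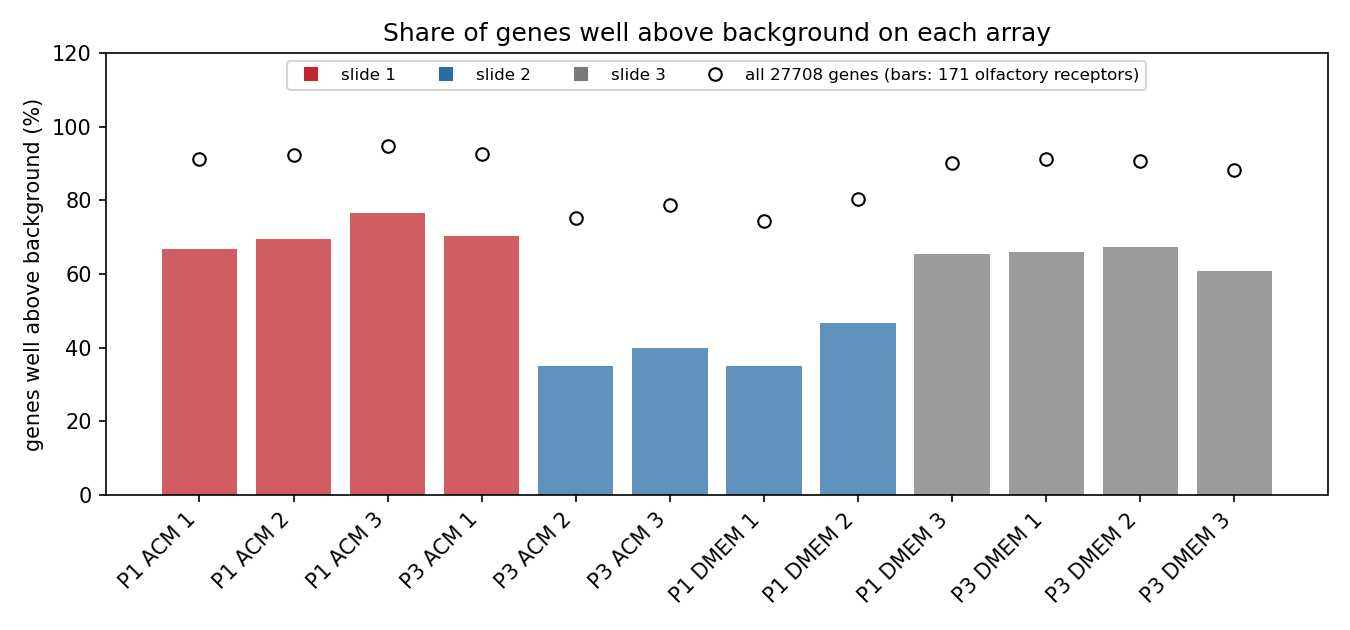
Share of genes well above background on each array in percent, as bars for the 171 olfactory receptors coloured by slide and as open circles for all 27708 genes. The 4 arrays of slide 2 have the lowest bars, 35.1% to 46.8%, although P3 ACM 2 and 3 and P1 DMEM 1 and 2 come from different media.

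The families differed in brightness, but slide 1 was highest in each, while the order of slides 2 and 3 varied. Family 1 had a median intensity of 128 to 174 on slide 1, 43.5 to 69.0 on slide 2 and 45.7 to 52.0 on slide 3. Family 2 had 79.3 to 118, 24.1 to 34.7 and 28.3 to 31.9. Family 4 was dimmer, at 26.0 to 41.1, 11.3 to 13.9 and 14.4 to 19.4, and family 5 had 36.6 to 51.9, 7.66 to 16 and 7.29 to 16.3. In each family the lowest array of slide 1 was above the highest array of the other slides.

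At P1 the members were higher in ACM as a group. Levels were scaled by subtracting the 75th percentile of each array from log2 of the processed intensity, and on this scale the median difference over the 171 members was 0.79 (quartiles 0.15 and 1.24), with 129 above 0 and 42 below, beside a median of 0.15 over all genes. With the thresholds of the study, more than 2-fold and p of 0.05 or less, applied here to the unadjusted p of limma, 65 members (38.0%) were higher in ACM, against 13.4% of all genes, and 8 (4.68%) were lower, against 0.487%. All 3 ACM samples were above all 3 DMEM samples for 90 members (52.6%), against 29.5% of all genes. With Benjamini-Hochberg adjustment over all probes in limma, 0 members passed 0.05 and the smallest adjusted p was 0.113, while 87 had an unadjusted p of 0.05 or less. Without P3 ACM 1, which enters the shared spread, 74 members passed after adjustment and the smallest adjusted p in limma was 0.000199. In that fit 5317 of all 27708 genes passed as well. After quantile normalization of the arrays the medians were 0.19 for the members and −0.01 for all genes, with 20 members higher and 11 lower. The 20 were 11.7% of the members, against 3.36% of all genes called higher in that setting. By family, 10 of 25 genes of family 1 (40%), 24 of 56 of family 2 (42.9%), 15 of 44 of family 4 (34.1%) and 16 of 46 of family 5 (34.8%) were called higher.

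The members called higher at P1 were then read on the P3 arrays, whose values enter the P1 call only through the spread that all groups share in the fit. P3 ACM 1, on slide 1, was above every P3 DMEM array for 62 of the 65, P3 ACM 2 for 8 and P3 ACM 3 for 5. Against the P1 DMEM arrays, on which the 65 were chosen, these counts were 63, 2 and 4. Over the 3701 genes of the whole array called higher at P1, the counts against every P3 DMEM array were 3437, 536 and 462. With slide as a fixed block in limma, 54 of the 65 had a difference below 0 and 11 above, only OR2G2 was called higher (named after its values were seen), and the members' median difference at P1 was −0.32. No slide held both media at the same passage, so differences with slide as a fixed block are indirect. At P1 they rest on P1 ACM against the single array P3 ACM 1 on slide 1. They rest also on P3 ACM against P1 DMEM on slide 2, which differ in passage.

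At P3, where ACM was on slides 1 and 2 and DMEM on slide 3, the median difference of the members was 0.23 (121 above 0, 50 below), beside 0.02 over all genes. There were 13 members (7.60%) called higher, against 3.58% of all genes, and 1 (0.585%) lower, OR4A47, against 0.801%. Samples did not overlap, with ACM higher, for 17 members (9.94%), against 7.16% of all genes. None (0) passed after adjustment in limma (smallest adjusted p = 0.283), and 19 had an unadjusted p of 0.05 or less. All 13 members called higher were not well above background on any P3 DMEM array, and 9 of them on none of the 12 arrays, where the values describe the lower end of each array. Without P3 ACM 1 the median at P3 was −0.12 over the members and −0.07 over all genes, so each median turned with that single array. In that setting 19 members were called lower, and the share of all genes called lower there is not given.

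Between the control media, P3 DMEM against P1 DMEM, the median difference of the members was −0.05. Only OR4A47 was called higher, against 1.05% of all genes, and 11 members (6.43%) were lower, against 2.26%. P3 DMEM was above P1 DMEM in all samples for 10 members (5.85%), against 10.4% of all genes. The difference of the ACM effect between P1 and P3, as an interaction in limma, had an unadjusted p of 0.05 or less for 37 members (21.6%), against 9.39% of all genes, and 0 passed after adjustment (smallest adjusted p = 0.409). With slide as a fixed block the count was 14 and as a random block 12. Without P3 ACM 1 it was 96 and without P3 ACM 2 it was 20. The counts over all genes in these settings are not given, so the shifts are not shown to be particular to the members.

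Over the members, samples that shared a slide had small median differences. On slide 1, the P1 ACM samples differed from P3 ACM 1 by a median of −0.12 over the members. On slide 2, the 2 P3 ACM samples differed from the 2 P1 DMEM samples by −0.08, a contrast of medium that also holds the passage, with 28 members above 0 and 143 below. On slide 3, P3 DMEM differed from P1 DMEM 3 by −0.07.

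Samples of the same group on different slides differed more where slide 1 was involved. P3 ACM 1 was above P3 ACM 2 and 3 by a median of 1.03 over the members, with 136 of 171 above 0, beside 0.22 over all genes. P1 DMEM 3, on slide 3, was above P1 DMEM 1 and 2, on slide 2, by 0.12. Against P3 DMEM, P3 ACM 1 was higher by 0.96 and P3 ACM 2 and 3 were lower, at −0.12. All 4 arrays of slide 1 were above all 8 others for 76 members (44.4%) and for 20.7% of all genes.

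**Figure D3:**
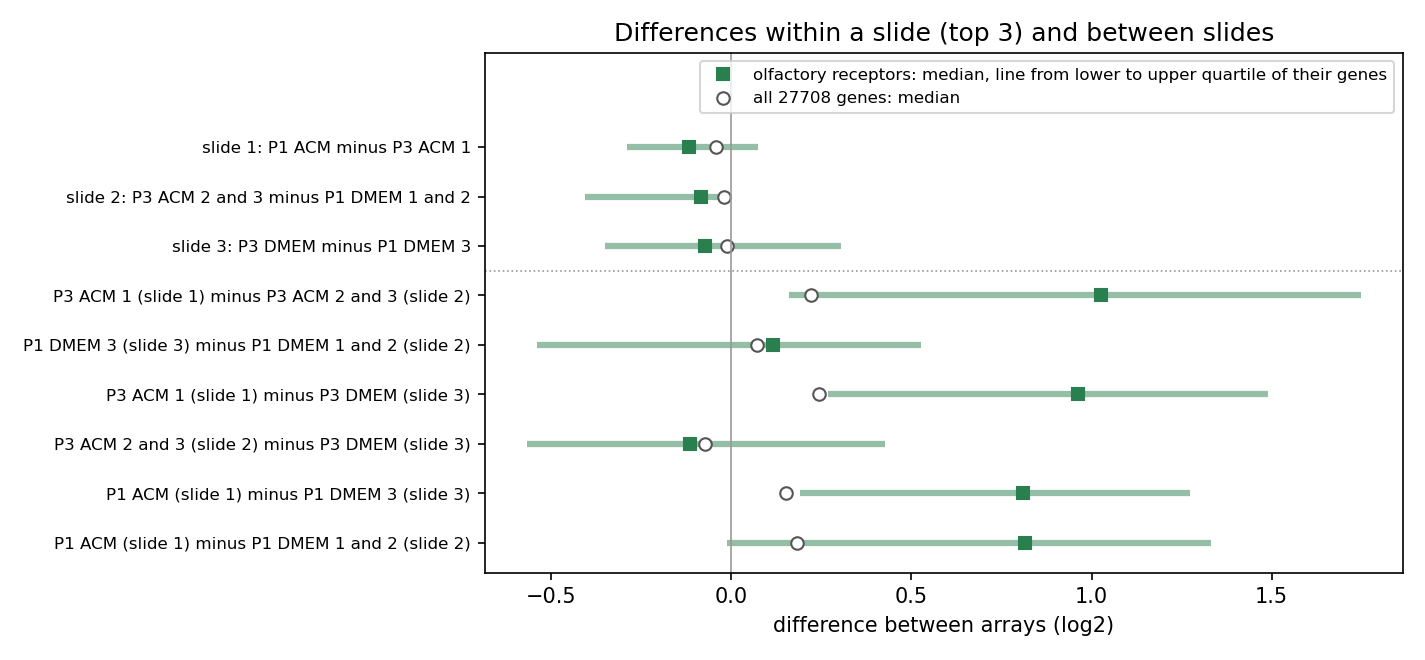
Median log2 difference between the named arrays over the 171 olfactory receptors (squares, with a line from the lower to the upper quartile of the genes) and over all genes (circles). The 3 contrasts within a slide, above the dotted line, lie at −0.12 to −0.07, and each of the 4 contrasts that sets slide 1 against another slide lies at 0.81 to 1.03.

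The size of the P1 difference varied with brightness. When all genes were divided into deciles by mean level, the lowest decile held 61 members, the next 35 and 32, and the upper 3 deciles together 2. The median P1 difference over all genes rose from 0.35 in the lowest decile to 1.17 in the next and then declined to 0.77, 0.51, 0.31, 0.13, 0.02, −0.03, −0.07 and −0.11. The members had −0.04 in the lowest decile, 1.42 and 1.01 in the next, and then 1.11, 0.68, 0.75 and 0.40, above the median of all genes of the same decile except in the lowest. In that lowest decile the median intensity over all genes was 14.8 on slide 1, 8.58 on slide 2 and 5.40 on slide 3. The median of the negative controls was 3.16 to 6.11, 7.05 to 9.79 and 2.21 to 3.20 on these slides. The decile thus lay within the range of the control medians on slide 2 and above it on slides 1 and 3. No test was made of the members against the decile they lie in.

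**Figure D4:**
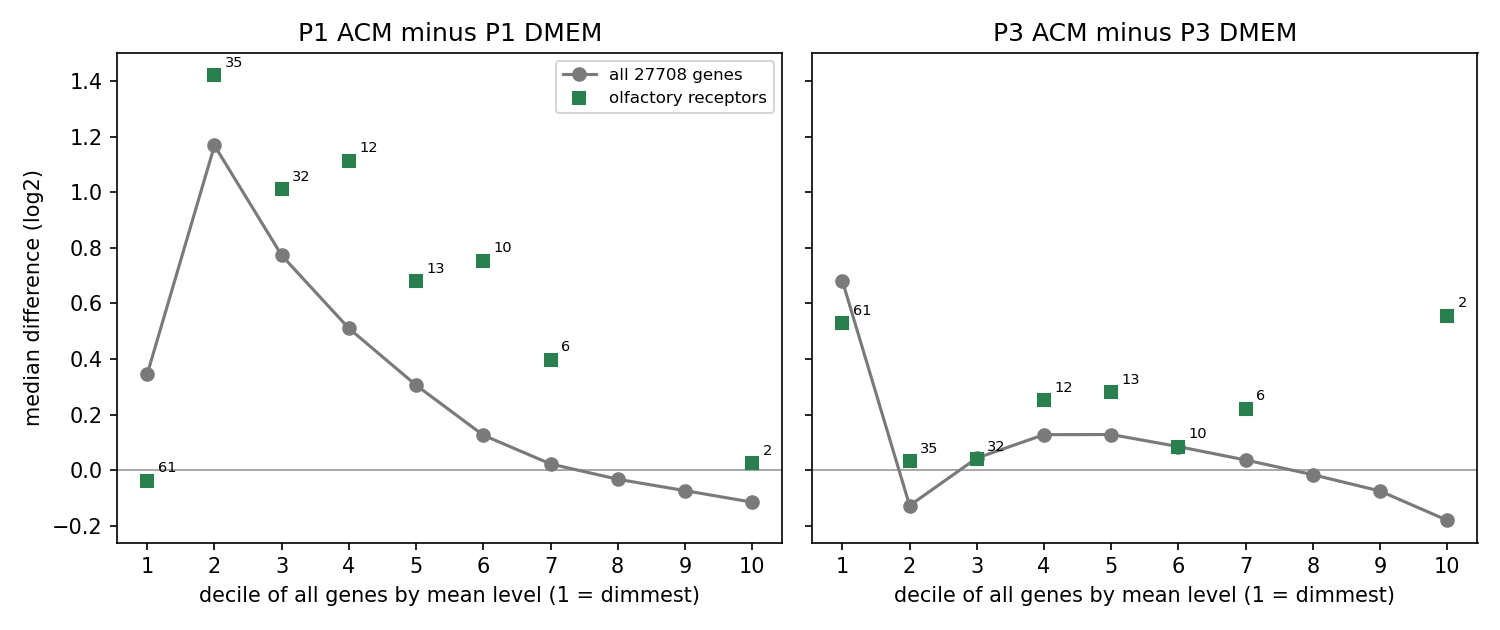
Median log2 difference between ACM and DMEM at P1 (left) and P3 (right) by decile of all genes from the dimmest (1) to the brightest (10), for all 27708 genes (circles) and for the olfactory receptors in the decile (squares, with their number). At P1 both are highest in the second decile, at 1.17 and 1.42, and at P3 both are highest in the lowest decile among deciles of over 2 members.

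Other gene sets with narrow use gave values close to those of the members. At P1 the median difference was 0.82 for the 183 receptors of the other olfactory receptor families, 0.89 for 25 bitter taste receptors, 0.71 for 83 keratin-associated proteins of hair and 0.83 for 31 beta-defensins, which are antimicrobial peptides. Called higher were 65 (35.5%), 9 (36%), 27 (32.5%) and 11 (35.5%) genes of these sets, beside 13.4% of all genes. The 84 cytosolic ribosomal proteins, among the brightest genes, had a median of −0.12 with 0 called (0 of 84 lower as well). Whether these sets differ from the members was not tested. Of 8 astrocyte markers, S100B and ALDH1L1 were called higher at P1 and AQP4 lower, with a median of 0.14 over the list, while GFAP differed by −0.28 and was well above background on 7 of 12 arrays (S100B, ALDH1L1, AQP4 and GFAP were named after their values were seen). The part of these genes in the result was not tested.

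Of the signalling genes named above, ADCY3 and CNGB1 were well above background on all 12 arrays, CNGA4 on 10 and CNGA2 on 5. Of the 25 genes listed for olfactory signalling and olfactory neurons, 23 were measured (GNAL and ANO2 were not). Of these, 16 were well above background on all 12 arrays and 2 on 0 arrays. Over the whole array, 20096 of 27708 genes were well above background on all 12. At P1, 3 of 23 (13.04%, beside 13.4% of all genes) were called higher, CNGA2, CNGA4 and SLC24A4, and 0 lower, with a median difference of 0.32. At P3, 1 was higher, UGT2A1, which was on 0 arrays well above background, and 0 lower (CNGA4, SLC24A4 and UGT2A1 were named after their values were seen). ADCY3, the cyclase of olfactory cilia that other cells use as well, had intensities of 3038 to 6093 on the 12 arrays and a P1 difference of 0.15. OMP, a marker of mature olfactory neurons, had 156 to 270 in the ACM samples and 96.0 to 160 in the DMEM samples, with a P1 difference of 0.24 ± 0.15 (SE, limma, adjusted p = 0.368).

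The transporter proteins that bring receptors to the cell surface did not pass the rule. REEP1 had 333 to 1277 on the 12 arrays and RTP1 55.2 to 273, with P1 differences of 0.41 and 0.62, and no array marked RTP2 as well above background. CNGA2, the main subunit of the olfactory channel, was marked on all 3 P1 ACM arrays, with 68.1, 29.7 and 121, and on no P1 DMEM array, with 9.06, 6.80 and 2.07. P3 ACM 1, on slide 1, had 52.1 for CNGA2, and P3 ACM 2 and 3 had 9.10 and 6.62.

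By mean level the brightest member was OR5L2, the highest on each array except P1 DMEM 3, where OR2H1 was highest. OR5L2 had intensities of 36329, 32647 and 17415 in P1 ACM and 32275, 37043 and 8945 in P1 DMEM. In P3 ACM it had 41537, 57748 and 13989, and in P3 DMEM 35595, 7642 and 10260. The lowest and the highest sample of P1 DMEM, of P3 ACM and of P3 DMEM lay far apart, and the groups overlapped, with a P1 difference of −0.10 ± 0.64 and a P3 difference of 0.91 ± 0.64 (SE, limma, adjusted p = 0.958 and 0.696).

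OR2H1 followed, with 20812, 18255 and 14335 in P1 ACM, 12279, 13470 and 10123 in P1 DMEM, 15495, 15904 and 9621 in P3 ACM and 13196, 6744 and 9698 in P3 DMEM. On the level scale its groups overlapped, and its differences were 0.15 ± 0.24 at P1 and 0.20 ± 0.24 at P3 (SE). A second probe of OR2H1 was well above background on 0 arrays, with 3.84 to 11.5, so that the probes of this gene differed by 10.96 in mean log2 level. OR4F15 showed the same split, with 554 to 2506 through 1 probe and 2.21 to 9.90, on 0 arrays, through the other (a difference of 8.12 in mean log2 level). OR5T3 was next, with a difference of 3.73. The bright signal of OR2H1 and OR4F15 thus rests on a single probe each, whose sequence was not used here.

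The next in brightness, OR1L6, OR5C1, OR5H1, OR5V1 and OR1J4, were well above background on all 12 arrays, at 421 to 2864. OR5C1 had 2319, 2084 and 1730 in P1 ACM and 647, 883 and 637 in P1 DMEM, and it had 2864, 914 and 599 in P3 ACM and 782, 763 and 674 in P3 DMEM. The P1 groups did not overlap, the difference was 1.09 ± 0.38 (SE, limma, adjusted p = 0.130), and the 4 arrays of slide 1 were the 4 highest. OR1L6 differed at P1 by 0.46, OR1J4 by 0.41 and OR5V1 by 0.39, each without overlap of the samples, and OR5H1 by −0.08 with overlap.

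OR5P2 separated the slides at an intensity far above background. It had 2245, 1917 and 1234 in P1 ACM and 1541 in P3 ACM 1, all on slide 1. On slide 2 it had 164 and 150 in P3 ACM 2 and 3 and 215 and 178 in P1 DMEM 1 and 2, and on slide 3 it had 635 in P1 DMEM 3 and 806, 815 and 663 in P3 DMEM. The slides did not overlap, and on slide 2 the ACM and DMEM samples together spanned only 150 to 215. By group, OR5P2 was higher in ACM at P1 by 2.17 ± 0.77 and at P3 differed by −1.46 ± 0.77 (SE, limma, adjusted p = 0.135 and 0.594). With slide as a block, where the estimate is indirect, these values were −0.05 and −0.28.

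The 6 largest rises at P1 were OR5H15, OR5AK2, OR2A14, OR5H14, OR4C45 and OR5AP2, each with an adjusted p of 0.113 in limma. Their fitted differences were 2.81 for OR5H15, 2.58 for OR5AK2, 2.48 for OR2A14, 2.32 for OR4C45 and 2.23 for OR5AP2, each marked on 1 of the 3 P1 DMEM arrays, while OR5H14 has only a bound. OR5H15 had 138, 83.4 and 90.3 in P1 ACM and 10.1, 7.98 and 15.7 in P1 DMEM. In P3 ACM it had 119, 10.4 and 7.25, and in P3 DMEM 16.7, 17.6 and 17.6. The first P3 ACM sample thus lay with the P1 ACM samples and the other P3 ACM samples lay below every P3 DMEM sample.

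OR5AK2 repeated this with 150, 97.7 and 97.4 in P1 ACM, 10.0, 18.4 and 15.2 in P1 DMEM, and 124, 10.3 and 7.32 in P3 ACM. OR2A14 had 139, 101 and 114, then 13.7, 17.2 and 16.4, and 165, 10.9 and 11.2 in the same order of groups. OR5H14 was well above background on no P1 DMEM array and was at least 1.31-fold higher in P1 ACM, with 50.02, 34.6 and 40.9 against 10.5, 8.12 and 2.55. With slide as a block, where the estimate is indirect, the differences of these 6 genes at P1 were between −0.08 and −0.88.

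**Figure D5:**
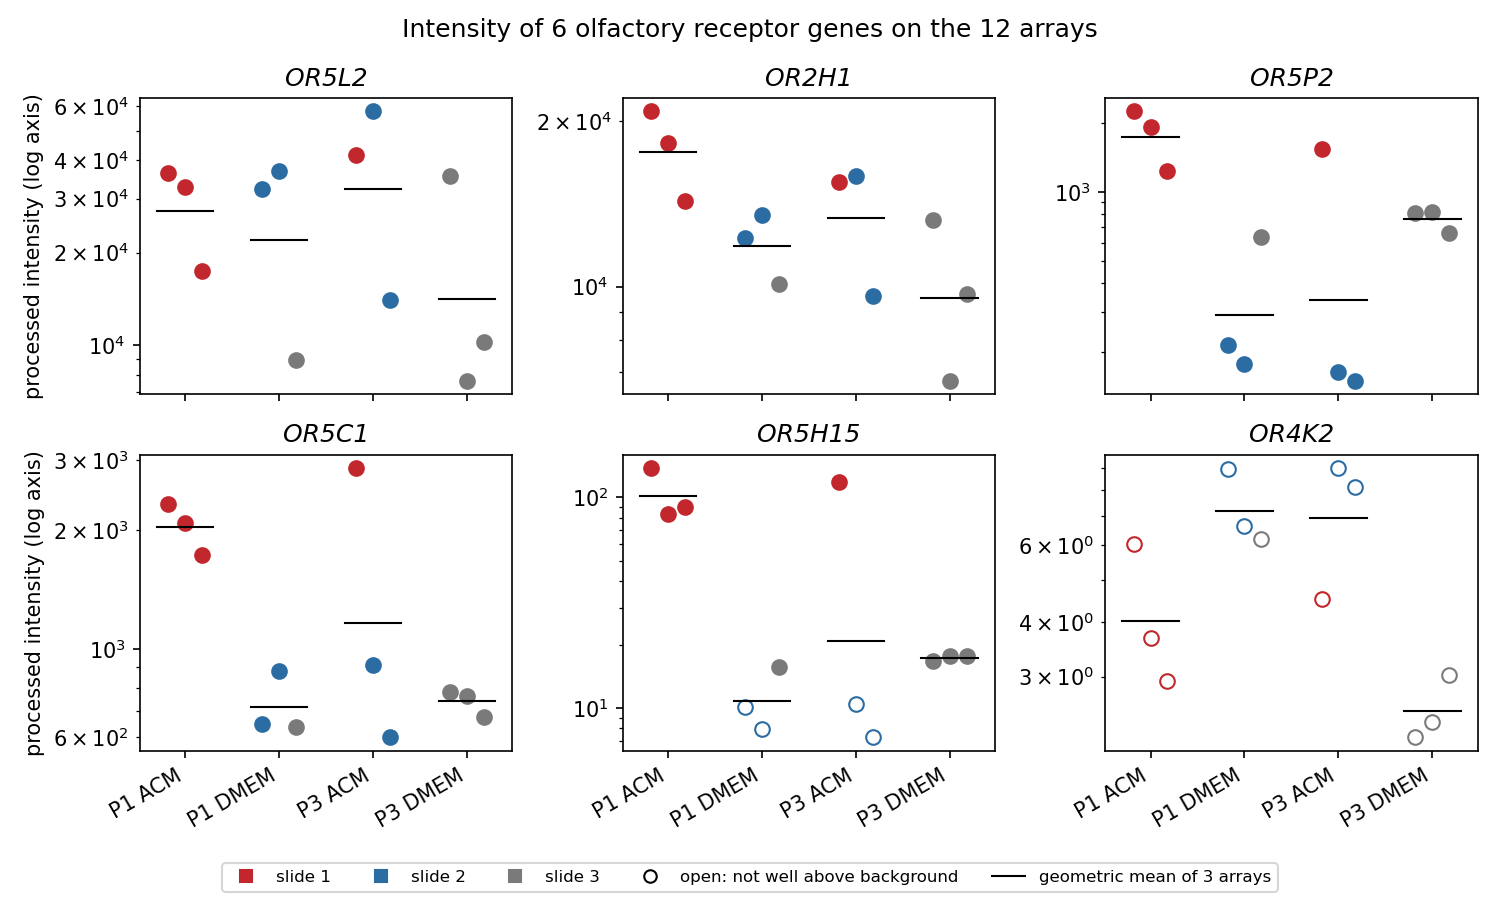
Processed intensity (log axis, a scale of its own in each panel) of 6 olfactory receptor genes in the 4 groups, 1 point per array coloured by slide, open where the array did not mark the gene as well above background, with the geometric mean of the group as a line. OR5P2, OR5C1 and OR5H15 have their 4 highest arrays on slide 1, while OR5L2 and OR2H1 mix the slides and OR4K2 is open throughout.

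The largest falls at P1 rested on few marked arrays. OR1L8 had 7.61, 9.07 and 14.8 in P1 ACM and 56.4, 9.67 and 121 in P1 DMEM, where 2 of the 3 arrays were marked, with overlap and a difference of −2.42 ± 0.90 (SE, limma, adjusted p = 0.145). OR4L1 was marked on P1 DMEM 3 alone, where it had 56.4. OR4K13 and OR4K14 were marked on none of the P1 arrays. Of the 8 members called lower at P1, OR4K13, OR4K2, OR5AC2, OR5B2 and OR5M9 were marked on 0 of the 12 arrays, and none (0) on all 12.

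At P3 the largest fitted rises were those of OR4N5, OR5T1, OR2T10 and OR2M7, none of them marked on any P3 DMEM array, so that their fitted size is no fold. OR4N5 was marked on P3 ACM 1 alone, at 31.6, with 9.82 and 6.94 in the other P3 ACM samples and 2.28 to 3.18 in P3 DMEM. OR5T1 was marked on P3 ACM 2 alone, at 59.9, beside 7.02 and 4.89. OR2M7 was marked on P3 ACM 1 alone among the P3 arrays, with 216, 9.13 and 6.56 in P3 ACM against 9.86, 3.51 and 5.09 in P3 DMEM, so that the groups overlapped and the high value was that of 1 sample. The largest falls were OR4A47 at −1.79, OR5P2, OR2W1 at −0.86 and OR4F21, which no P3 ACM array marked. OR4A47 was marked on 2 of 3 P3 DMEM arrays, with 88.9 and 33.9 there and 9.76 in the other, against 23.4, 8.63 and 6.31 in P3 ACM. Only OR5H14 and OR4K5 were called higher at both passages (OR4K5, OR5B2 and OR5M9 were named after their values were seen).

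The 25 members on 0 arrays included OR2J3, OR4D1 and OR2M4 as the brightest and OR4C13, OR4K2 and OR5AR1 as the dimmest. OR5AR1 had 5.85, 3.82 and 2.94 in P1 ACM, 9.14, 7 and 2.15 in P1 DMEM, 4.66, 9.15 and 6.59 in P3 ACM and 2.20, 2.34 and 3.01 in P3 DMEM. These values lay close to the medians of the negative control spots given above. Over the 25, the median difference was −0.41 at P1 (9 above 0, 16 below) and 0.83 at P3 (24 above 0, 1 below), without any sample in which they were marked as present. Among the members on all 12 arrays, OR2L2, OR1N2 and OR2F1 were the dimmest, and single high samples occurred there too, as for OR1N2, with 450 in P1 DMEM 1 and 36.9 to 94.7 in the other 11 samples.

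By chromosome, 64 members lay on chromosome 11, 30 on chromosome 1 and 16 on chromosome 9. The median P1 difference was 0.79 on chromosome 11, 1.01 on chromosome 1 and 0.48 on chromosome 9, with 26, 15 and 5 members called higher, where 13.4% of all genes were. On chromosome 14, whose 14 members were the dimmest with a median level of −8.09, it was 0.50 with 2 of 14 called higher, close to the share of all genes.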

How the data were processed

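RNA of 12 Daoy cultures, from 3 independent experiments by the submitters' account, was hybridised to 12 Agilent arrays of a single colour. The authors deposited the scanner output, which holds a Cy3 intensity per spot after background correction by Agilent Feature Extraction 11.0.1.1, without scaling between arrays. Per the file headers it also holds calls of a spot as well above background, which were read as other values of 0 or 1. The authors further deposited a table of log2 values. Its columns rank like the arrays of other samples, so it was used only under its own labels, as an alternative, and it lists 107 of the members.

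Spots of controls and those the software called outliers were removed, and the remaining spots of each probe were averaged. Probes were named through their RefSeq accession, which gave a symbol to 25771 of 34127 (75.5%), and where a gene had several probes, the one of highest mean level stood for it. The other probes kept the name in the files and count among all 27708 genes. Levels were log2 intensities from which the 75th percentile of their array was subtracted. No filter on dim probes was used, so all 171 members were tested. Groups were compared with limma 3.58.1 in R 4.3.3, two-sided, in a single fit of 4 group means over 12 arrays with 8 residual degrees of freedom and Benjamini-Hochberg adjustment over all probes. The number of arrays, 3 a group, limits the precision. Where a probe was well above background on no array of a group, a fold is given only as a bound against the lowest signal marked there, and a fitted log2 difference printed for such a probe describes the fit and is no fold. The fit was checked on simulated data. Figures were drawn with matplotlib 3.10.9.

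The members, lists and tests were chosen with earlier results of these data known. Single members were named by rule: the 8 with the highest level, the 6 largest rises and 4 largest falls at P1, the 4 largest rises and falls at P3, the 3 brightest and 3 dimmest on all 12 and on 0 arrays, the 3 of smallest p in the interaction of medium and passage, and the 3 whose probes differ most.

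Samples that share a replicate number deviated from their group means together at P1 (correlations of 0.29, 0.13 and 0.20), and less so at P3 (0.21, −0.15 and 0.06). The values reported do not use the numbers as pairs. Replicate number entered the fit only in an alternative, the replicate block. Alternatives were other scalings, normexp with an offset of 50, 2 filters on dim probes, the table of the authors, only the arrays compared, eBayes with trend, the methods' t-test, slide as a fixed or random block, the replicate block, the mean of a gene's probes and each array left out. A common floor for low signals was added after seeing the data.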

Additional observations from a re-analysis of the deposited data

Results flagged for a closer look

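For 2 members the samples of ACM and DMEM separated in opposite directions at the 2 passages. OR4K2 was lower in all P1 ACM samples (−1.25) and higher in all P3 ACM samples (1.18), a difference between passages of −2.43 (limma, unadjusted p = 0.000414, adjusted p = 0.450). OR2A12 differed by −0.87 at P1 and 1.46 at P3, a difference of −2.33 (unadjusted p = 0.00024, adjusted p = 0.409). Neither was well above background on any array (0 of 12), so these fitted differences are no folds. The intensities of OR4K2 were 2.94 to 6.03 on slide 1, 6.63 to 9 on slide 2 and 2.18 to 6.19 on slide 3, and the medians of the negative control spots were 3.16 to 6.11, 7.05 to 9.79 and 2.21 to 3.20. OR5AC2, the third by that test, was also on 0 arrays (−2.20, unadjusted p = 0.00166, adjusted p = 0.465 in limma).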

How the results depend on the processing

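The number of members higher in ACM at P1 (65) was 20 after quantile normalization, 40 with scaling by the median, 3 with normexp and quantile normalization, 19 of 53 on all 12 arrays, 1 of 107 in the table of the authors, 1 with slide as a fixed block, 5 with slide as a random block, 35 with a common floor, and 39 to 66 with 1 array left out, lowest without P1 DMEM 1. The share of members, against that of all genes, was 11.7% against 3.36% after quantile normalization and 23.4% against 8.89% with scaling by the median. It was 1.75% against 0.664% with normexp, 35.8% against 4.35% on all 12 arrays and 20.5% against 5.32% with the floor. With slide as a fixed block it was 0.585% against 0.632%, and as a random block 2.92% against 1.46%. In the table of the authors it was 0.935% against 0.266%. For members called lower, higher in P3 DMEM or different between passages, the shares of all genes under these alternatives are not given. The 8 lower at P1 were 1 without scaling, with normexp and with slide as a random block, 0 under both filters and the common floor, and 3 to 9 with 1 array left out (3 without P1 DMEM 1, and 4, 5 and 5 without P1 ACM 1, 2 and 3). The 13 higher at P3 were 5 after quantile normalization, 20 without scaling, 0 with normexp, the stricter filter and the common floor, 1 with the other filter and in the table of the authors, 4 and 6 with slide as a fixed and random block, 7 by the methods' t-test, and 8 to 17 with 1 array left out, lowest without P3 DMEM 1. As shares these were 2.92% against 1.39% of all genes after quantile normalization and 11.7% against 6.03% without scaling. They were 0.870% against 0.906% with the other filter and 0.935% against 1.97% in the table of the authors. With slide as a fixed and random block they were 2.34% against 1.76% and 3.51% against 1.56%, and by the t-test 4.09% against 2.08%. The 1 lower at P3 was 2 with scaling by the median, 21 in the table of the authors, 0 without scaling, with normexp, both filters, only the arrays compared, slide as a random block, the mean of probes, the methods' t-test and the floor, and 0 to 19 with 1 array left out, highest without P3 ACM 1. The 1 higher in P3 DMEM than in P1 DMEM was 0 with normexp, both filters, the mean of probes, the methods' t-test and the floor, 3 in the table of the authors, 2 with only the arrays compared, and 0 to 4 with 1 array left out, highest without P1 DMEM 3. The 37 that differed between passages were 16 with normexp, 11 on all 12 arrays, 5 in the table of the authors, 14 and 12 with slide as a fixed and random block, 22 by the methods' t-test, 6 with the floor, and 20 to 96 with 1 array left out (96 without P3 ACM 1, 20 and 24 without P3 ACM 2 and 3, 22 without P1 DMEM 1).

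The median difference at P1 (0.79) was 0.19 after quantile normalization, 1.21 without scaling, 0.11 with normexp and 0.15 with the common floor. It turned to −0.21 in the table of the authors and −0.32 with slide as a fixed block, an indirect estimate. The median at P3 (0.23) was 0.08 after quantile normalization, 0.03 with normexp, 0.52 without scaling, 0.12 with scaling by the median and with the filter by group, and 0.00071 with the common floor. It turned to −0.42, −0.18 and, without P3 ACM 1, −0.12, and was −0.12 to 0.44 with 1 array left out. The cause of these changes was not tested. Of all genes the P1 median was 0.15, −0.01 after quantile normalization, 0.56 without scaling and −0.11 with scaling by the median. The replicate block gave 64 higher and 7 lower at P1 and 13 higher and 0 lower at P3, with 32 that differed between passages. Adjusted p of 0.05 or less was reached by 0 members at P1, by 74 without P3 ACM 1, 73 with only the arrays compared, 55 without scaling and 29 by the methods' t-test. Over all 27708 genes the counts were 0, 5317, 4701, 4344 and 1892 in the same order. Dim signals limit these values, since 118 members were below the mark of well above background on at least 1 array.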
